A study of Mus musculus with 2 samples.

Results

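The data described here are the levels of 10 genes of secreted immune signals, taken from 32285 genes in a single-cell RNA-seq profile of mouse bone and marrow. The genes are the chemokines Ccl2, Ccl7, Ccl19, Cxcl1 and Cxcl2, the cytokines Il6, Il1a, Il1b and Tnf, and Il1rn. They were listed by name as members of the senescence-associated secretory phenotype (SASP), and all 10 had at least 1 UMI (unique molecular identifier, a tag on a captured transcript end) in the cells kept. The femurs and tibiae came from 3 male mice, 24 months old and untreated, of the INK-ATTAC strain, which carries a transgene that places a drug-activated caspase 8 under a fragment of the p16 (Cdkn2a) promoter. The activating drug AP20187 was not given, and there was no young or wild-type group. Marrow and digested bone were combined, red cells were lysed, cells with CD5, B220, CD11b, Gr-1, 7-4 or Ter-119 were depleted, and live CD45- cells were sorted, so most blood cells should have been removed before capture.

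A senescent cell has left the cell cycle for good, usually with p16 or p21 (Cdkn1a) raised, and often secretes chemokines, cytokines and proteases that act on its neighbours. Many of the same signals are also made by cells that are not senescent, through NF-kB and the immediate-early transcription factors (Fos, Jun, Egr1 and others) that are switched on within minutes of a stimulus, tissue digestion included. LEPR+ stromal cells, also called CAR cells for their abundant Cxcl12, surround marrow vessels and supply blood stem cells with niche factors. The question put to the data was in which cell types the 10 genes were found and whether, among stromal cells, their levels went with Cdkn1a or with the immediate-early genes.

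The mice were pooled, and the 2 deposited libraries shared 10928 of 11056 barcodes. Their counts differed by less than sampling noise (squared differences of 0.559 times the summed counts), so the libraries, which the labels call replicates, were taken as 2 sequencing lanes of the same cells and summed. No label calls them lanes. They held 116827845 and 120556381 UMIs. With 1 biological sample no test was possible: each interval given here is an exact 95% Poisson or binomial interval on the mean of the lanes, covers counting error only, and says nothing of the spread between mice. Levels are in CPM, the UMIs of a gene over all UMIs of the same cells on the usual CPM scale. A UMI marks a transcript end, so levels need no correction for transcript length. A transcript read in both lanes is counted in each, so a summed UMI count, and any minimum set on it, can exceed the number of transcripts. Of the 9573 barcodes kept (at least 200 genes and at most 20% mitochondrial UMIs), 1877 (19.6%) passed the stromal gate of at least 1 Lepr UMI and at least 5000 CPM of Cxcl12. Both main clusters that held them showed 12 of 12 stromal markers. The other classes were 6413 erythroid cells, 102 megakaryocytes, 47 endothelial cells, 22 osteoblasts, 44 plasma cells and 2 fibroblast groups, 38 cells led by Clec3b and Pi16 and 78 led by Prg4 and Fmod. A further 204 cells of the stromal clusters missed the gate, 28 cells of the megakaryocyte cluster fell short of 1000 CPM of Pf4, a megakaryocyte chemokine, and 720 cells in clusters that could not be named were left without a class. The sort had therefore not removed the erythroid cells, which made up 67.0% of the barcodes.

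The members lie on 5 chromosomes (GRCm38, GENCODE vM21), several of them side by side, and all are protein coding. Ccl2 (chr11:82035571-82037453) and Ccl7 (chr11:82045712-82047525) are neighbours on the plus strand, as are Cxcl1 (chr5:90891241-90893115) and Cxcl2 (chr5:90903871-90905938). Il6 lies at chr5:30013114-30019981 and Il1rn at chr2:24336853-24351494, both on the plus strand. Il1a (chr2:129299610-129309972), Il1b (chr2:129364570-129371139), Ccl19 (chr4:42754525-42756577) and Tnf (chr17:35199381-35202007) lie on the minus strand. Ccl19 has a near-identical copy on an unplaced scaffold, and the copy on chromosome 4 held all 1832 UMIs in the deposited barcodes.

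RefSeq promoters (GRCm38.p6, the 250 bases before the start) were found for 8 of the 10 members. Ccl2 and Ccl7 had no promoter entry and were not searched. They have 10 promoters in all, 3 of them of Il1rn, and a member was counted where any of its promoters held a motif. An NF-kB motif, by its usual degenerate consensus on either strand, was in 3 of the 8 members, and 3.90% of the 32817 promoters of that length held it. An AP-1 motif (TGANTCA, the site of Fos and Jun) was also in 3 of the 8, and in 6.75% of promoters. The serum-response CArG box was in 0 of the 8, and in 1.47% of promoters. Shares per member and per promoter are not on the same base. Promoters of 4 members are shown, 5′ to 3′ on the plus strand and without bases inside the annotated gene, because Cxcl1, Cxcl2 and Il6 carry the NF-kB letters while the first promoter of Il1rn, the most abundant member in stroma, carries AP-1 letters only. The other 2 Il1rn promoters, inside the annotated gene, held 0 matches of any of the motifs. UMIs mark transcript ends, so the counts do not tell which of the 3 promoters was in use. Capitals mark the matches, which in Cxcl1 and Cxcl2 are 2 overlapping NF-kB matches each. In Il6 the first capitals are AP-1 and the second NF-kB.
Cxcl1 (chr5:90890995-90891240): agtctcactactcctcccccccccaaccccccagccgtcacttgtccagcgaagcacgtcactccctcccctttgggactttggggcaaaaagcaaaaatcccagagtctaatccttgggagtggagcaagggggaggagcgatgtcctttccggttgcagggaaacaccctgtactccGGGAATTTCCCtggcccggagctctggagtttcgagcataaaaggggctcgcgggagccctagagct
Cxcl2 (chr5:90903649-90903870): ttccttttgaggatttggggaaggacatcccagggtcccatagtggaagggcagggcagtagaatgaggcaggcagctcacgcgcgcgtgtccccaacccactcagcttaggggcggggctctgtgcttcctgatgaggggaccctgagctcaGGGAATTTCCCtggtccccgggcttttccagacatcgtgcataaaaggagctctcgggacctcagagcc
Il6 (chr5:30012864-30013113): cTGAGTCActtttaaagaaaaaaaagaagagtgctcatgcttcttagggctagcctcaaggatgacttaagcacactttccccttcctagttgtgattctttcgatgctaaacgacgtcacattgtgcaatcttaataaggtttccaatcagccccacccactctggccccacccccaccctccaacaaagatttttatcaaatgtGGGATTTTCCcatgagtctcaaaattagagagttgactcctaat
Il1rn (chr2:24336610-24336852): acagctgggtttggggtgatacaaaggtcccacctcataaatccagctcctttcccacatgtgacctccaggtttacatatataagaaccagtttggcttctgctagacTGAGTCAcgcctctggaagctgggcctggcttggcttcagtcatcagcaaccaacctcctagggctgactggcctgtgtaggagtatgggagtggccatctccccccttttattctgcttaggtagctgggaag
The NF-kB letters began 71 bases before the start in Cxcl1, 97 in Cxcl2 and 44 in Il6, and the AP-1 letters 249 bases before the start in Il6, 141 in Il1rn and 12 in Il1a. A match is a description of the letters and not evidence of binding.

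In LEPR+ stromal cells 5 members were well measured and the other 5 were at or near the floor. Il1rn, which encodes the antagonist of the IL-1 receptor, was the most abundant, at 239 CPM (95% interval 226 to 252, with 238 in lane 1 and 239 in lane 2). Ccl19, a ligand of CCR7 that draws lymphocytes and dendritic cells, followed at 149 CPM (139 to 160; 143 and 155). Ccl2, the main monocyte chemoattractant, was at 75.6 CPM (68.5 to 83.4; 75.5 and 75.7). The intervals of these 3 did not overlap. Cxcl1, which draws neutrophils through CXCR2, was at 14.8 CPM (11.7 to 18.4; 14.2 and 15.4), and Ccl7, another monocyte chemokine, at 13.1 CPM (10.2 to 16.6; 13.2 and 13.0). These last 2 levels could not be told apart.

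The classical inflammatory cytokines were close to absent from the same 1877 stromal cells. Tnf had 10 UMIs in 7 cells (0.930 CPM), and Cxcl2, the neighbour and close relative of Cxcl1, had 3 UMIs in 3 cells. Il1b had 3 UMIs in 2 cells and Il6, a pleiotropic cytokine often used as the standard SASP marker, had 2 UMIs in 1 cell. Il1a, which encodes IL-1α, had 0 UMIs, which allows a level of up to 0.558 CPM and up to 0.160% of cells with a UMI, which does not limit the share of cells that express the gene. The agonists of the IL-1 receptor were thus near or below the limit of detection in cells whose most abundant member was its antagonist.

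**Figure D1:**
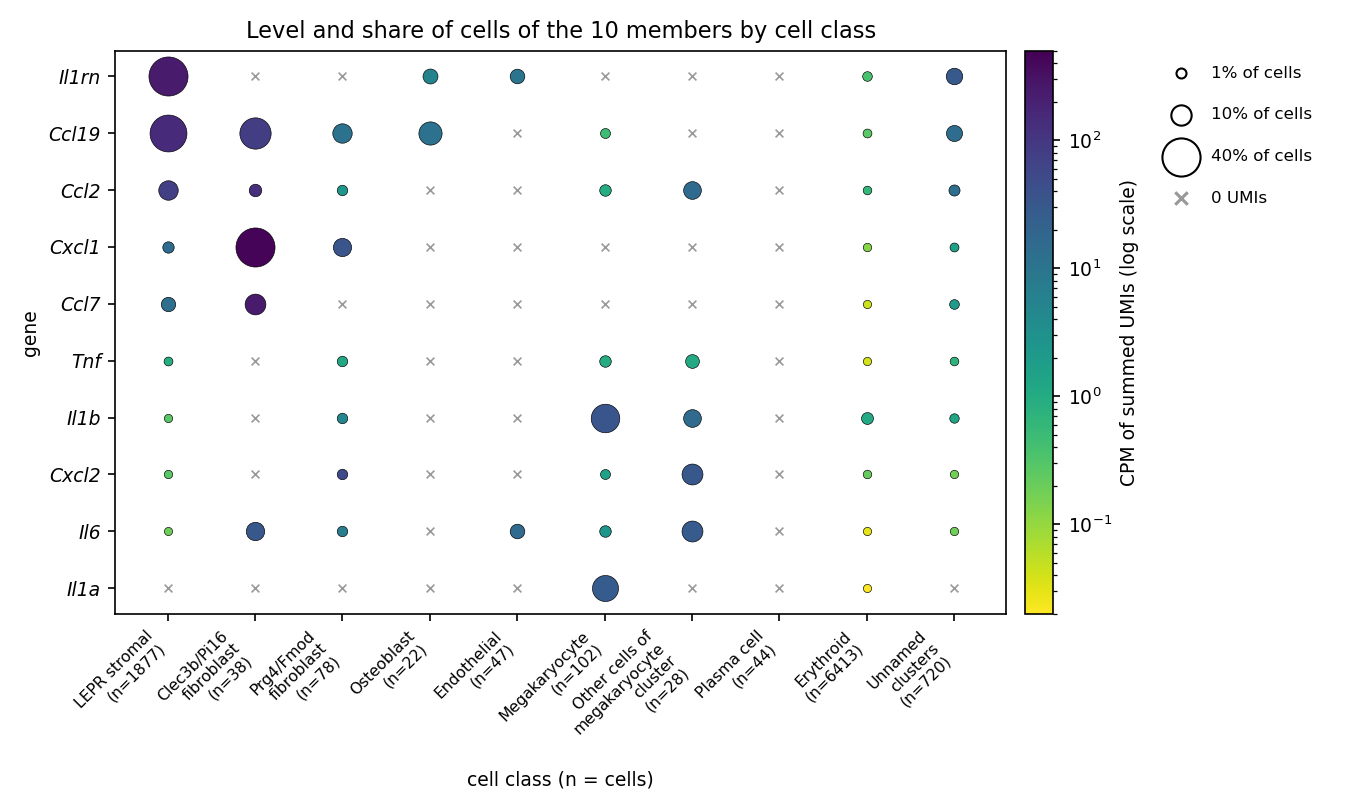
Level and share of cells of the 10 members in each cell class. Rows are members and columns are classes with their number of cells, colour is CPM on a log scale, dot size is the percent of cells with a UMI, and a cross marks 0 UMIs. The 204 cells of stromal clusters outside the gate are not drawn. Il1rn and Ccl19 are highest in the LEPR stromal column, Cxcl1, Ccl7 and Ccl2 (122 CPM, from 1 cell) in the Clec3b/Pi16 fibroblasts, and Il1a and Il1b in megakaryocytes.

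The share of stromal cells with a UMI followed the level for some members and not for others. Il1rn was found in 790 of 1877 cells (42.1%) and Ccl19 in 700 (37.3%), whereas Ccl2 was found in 170 (9.06%, 7.80 to 10.4), Ccl7 in 77 (4.10%) and Cxcl1 in 35 (1.86%). Ccl7 was therefore seen in more cells than Cxcl1 at a similar level. In erythroid cells, which should lack these transcripts, the shares were 0.811% for Il1rn, 0.374% for Ccl19, 0.265% for Ccl2, 0.172% for Cxcl1 and 0.109% for Ccl7, at a median depth of 28982 UMIs against 5188 in stroma. With each cell thinned to 1000 UMIs the stromal shares were 17.4%, 11.9%, 3.60%, 0.743% and 1.37% in that order of genes, against at most 0.0476% in erythroid cells. The erythroid shares were the lower ones for these 5 members at either depth. For Tnf, Cxcl2 and Il1b the stromal shares of 0.373%, 0.160% and 0.107% stood beside erythroid shares of 0.109%, 0.218% and 2.21%. They rested on at most 10 UMIs, and no order was read from them.

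Against erythroid cells, 5 of the 6 members with enough UMIs for a ratio (50 or more over both classes) were at least 2-fold higher in stroma, beside 46.3% of the 13502 genes tested, and 1, Il1b, was at least 2-fold lower, beside 18.7%. Ccl7 and Cxcl1 reached 50 UMIs only through stroma and Il1b only through erythroid cells, so nothing is read from their part in the count. The Il1b ratio rested on 3 stromal UMIs (log2 −2.01, −5.82 to 0.12). The log2 ratios ran from 6.89 for Cxcl1 to 9.27 for Il1rn, against a median of 0.81 over all genes tested. Of all UMIs of a member in the kept barcodes, the stromal cells held 89.2% for Il1rn, 87.9% for Ccl19, 72.6% for Ccl2, 52.6% for Ccl7 and 36.6% for Cxcl1. The stromal cells made up 19.6% of the barcodes.

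The members differed in how their UMIs were spread over the stromal cells. For Il1rn the 10 richest stromal cells held 7.92% of the stromal UMIs and for Ccl19 8.86%, and it took 154 and 159 cells to reach 50% of them. For Ccl2 the 10 richest cells held 46.0%, and 13 cells reached 50%. For Cxcl1 the 10 richest held 76.1%, and 3 cells reached 50%. Ccl7 lay between, with 29.1% in 10 cells and 22 cells for 50%. The richest single cell had 93 UMIs of Ccl2, 39 of Cxcl1, 34 of Il1rn, 19 of Ccl19 and 8 of Ccl7. Ccl2 and Cxcl1 were thus carried largely by a small number of cells with many transcripts, and their mean levels depended on them: without the 5 richest cells Ccl2 fell from 75.6 to 49.5 CPM and Cxcl1 from 14.8 to 5.70 CPM.

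**Figure D2:**
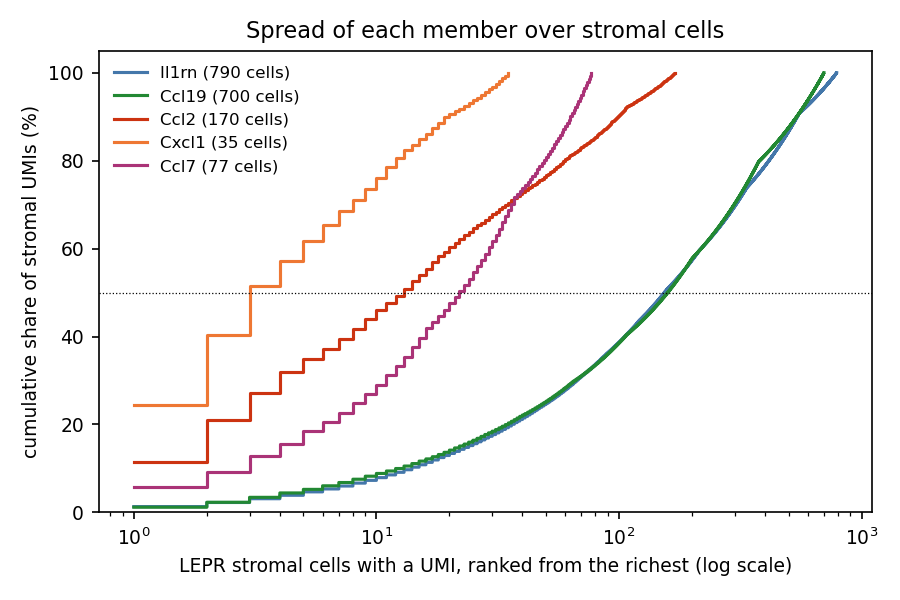
Cumulative percent of a member's stromal UMIs (vertical axis) against stromal cells ranked from richest to poorest in that member (horizontal axis, log scale), for the 5 members with at least 50 stromal UMIs. The dotted line marks 50%, which the Cxcl1 line crosses at 3 cells and the Ccl2 line at 13, while Ccl19 needs 159 and Il1rn 154.

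The richest cells for 1 member were often positive for another. Of the 18 stromal cells with at least 10 UMIs of Ccl2, 15 had a Ccl19 UMI, 6 a Ccl7 UMI and 6 a Cxcl1 UMI. Of the 10 cells with at least 10 UMIs of Ccl19, 8 had a Ccl2 UMI. Over all 1877 stromal cells, Ccl2 and Ccl19 were found together in 95 cells, which is 55.9% of the Ccl2 cells and 13.6% of the Ccl19 cells. Ccl2 and Cxcl1 were found together in 14 cells, out of 170 Ccl2 cells and 35 Cxcl1 cells. Counting the 5 well-measured members, 660 stromal cells had a UMI of none of them, 770 of 1, 360 of 2, 66 of 3 and 21 of 4, and 0 cells had all 5.

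Correlations of residual counts over the 1877 stromal cells, given each cell's total, are a description, since cells share a library and most counts are 0 or 1. The highest among members was 0.36 for Ccl2 with Cxcl1, followed by 0.24 for Ccl2 with Ccl19 and 0.18 for Ccl19 with Cxcl1. Il1rn stood between −0.03 and 0.06 with each of the other 4. Among 8680 genes found in at least 5% of stromal cells, those most like Ccl2 were Rgs16 (0.29), Ccl19 (0.24), Sod2 (0.21), Gadd45b (0.21) and Gbp5 (0.21). Those most like Ccl19 were Ifitm3 (0.27), Timp1 (0.25), Ccl2 (0.24), Serpina3g (0.24) and Timp3 (0.24). Those most like Il1rn were Fabp4 (0.18), Itih5 (0.17), S100a6 (0.16), Rarres2 (0.16) and Mgp (0.16). These are weak values in sparse counts, and no shared control is read from them.

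The stromal gate drew on 2 main clusters made without the members. Cluster 2, led by Hp, Lpl and Adipoq, held 1080 of the gated cells, and cluster 3, with Ier5l and Hes1 among its leading genes, held 659. Ccl19 was at 172 CPM (159 to 186) in cluster 2 and 75.5 CPM (61.4 to 91.9) in cluster 3. Ccl2 was at 88.7 against 41.7 CPM, and Il1rn at 264 against 167 CPM. Of the 685 Ccl2 UMIs in cluster 2, 93, 77 and 51 lay in 3 cells. A further 134 gated cells lay in cluster 11, which could not be named. There Ccl19 was at 213 CPM (150 to 294), Il1rn at 230 CPM (164 to 314) and Ccl2 at 52.5 CPM (24.0 to 99.7). Between clusters 2 and 3, Ccl7, at 13.5 against 13.3 CPM, did not differ beyond counting error. Cxcl1 was at 17.5 CPM (13.6 to 22.2) against 7.97 CPM (3.90 to 14.4). The 3 stromal cells with at least 10 Cxcl1 UMIs (39, 25 and 18) all lay in cluster 2, so no order is read for Cxcl1. Cdkn1a was at 28.7 CPM (23.6 to 34.6) in cluster 2 and 42.1 CPM (31.8 to 54.7) in cluster 3, with overlapping intervals, and was found in 9.44% and 8.19% of cells (2.78% and 4.83% thinned to 1000 UMIs), so no order is drawn. Median depth was 6579 UMIs over cluster 2 and 3323.5 over cluster 3, and thinned to 1000 UMIs the share of cells was 14.1% against 6.99% for Ccl19, 19.5% against 13.8% for Il1rn and 3.98% against 2.66% for Ccl2.

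The 38 Clec3b/Pi16 fibroblasts had a different profile. Cxcl1 was at 447 CPM (360 to 549; 457 in lane 1 and 438 in lane 2), 30.2-fold the stromal level, with 183 UMIs in 16 of 38 cells (42.1%). No single fibroblast decided this, since the richest held 16.9% of the UMIs. Ccl7 was at 242 CPM (log2 4.21 against stroma), but 72 and 25 of its 99 UMIs lay in 2 cells. Ccl2 was at 122 CPM (79.1 to 180), but all 50 of its UMIs lay in 1 cell, which also held 72 UMIs of Ccl7, 17 of Cxcl1, 5 of Il6 and 9 of Cdkn1a. Il6 had 13 UMIs in 3 of the fibroblasts. Ccl19 was at 83.1 CPM (log2 −0.84 against stroma, −1.63 to −0.15), on 34 UMIs of which 13 lay in 1 cell, and it reached 50 UMIs in stroma alone, so no direction is read.

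Il1rn had 0 UMIs in these fibroblasts, at least 16.3-fold lower than in stroma. Of the 5 members with enough UMIs, 2 (Ccl7 and Cxcl1) were at least 2-fold higher than in stroma, beside 8.74% of 11085 genes, and 1 (Il1rn) at least 2-fold lower, beside 21.7%. Il1rn reached 50 UMIs only through stroma, so nothing is read from that count. The summed immediate-early list was at 12866 CPM in these cells, against 2174 in stroma, 575 in megakaryocytes and 466 in erythroid cells, and all 10 of its genes were at least 2-fold higher than in stroma. Cdkn1a was at 127 CPM, in 15 of these 38 cells, against 31.6 CPM in stroma. The summed heat shock genes were at 4037 against 1519 CPM. The part of these differences in the Cxcl1 level was not tested. The Prg4/Fmod fibroblasts had 10297 CPM of the immediate-early list and 523 CPM of Cdkn1a. Their Cxcl1 was at 36.0 CPM (30 UMIs in 6 of 78 cells, 23 of them in 1 cell), and they held 42 Cxcl2 UMIs in 1 cell and 6 Il6 UMIs in 1 cell.

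Il1a and Il1b, the pair of genes for the IL-1 agonists, were at their highest in megakaryocytes, the platelet-forming cells. Il1a was at 27.0 CPM (18.0 to 39.1; 27.5 and 26.6 in the lanes), with 56 UMIs in 18 of 102 cells (17.6%), which is 93.3% of all its UMIs. Il1b was at 36.2 CPM (25.6 to 49.8; 36.3 and 36.1), with 75 UMIs in 22 cells (21.6%). Thinned to 1000 UMIs, Il1a was found in 3 and Il1b in 0 of 84 megakaryocytes. The cell richest in Il1b held 298017 UMIs in all. Both were found together in 6 cells. The richest cell held 17 of the Il1a UMIs and another 18 of the Il1b UMIs. Against stroma Il1a was at least 48.5-fold higher, and the log2 ratio of Il1b was 7.02 (4.83 to 10.86).

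Il1rn had 0 UMIs in the megakaryocytes, at least 82.3-fold lower than in stroma, while erythroid cells held UMIs of both Il1b (235) and Il1rn (81). Of the 7 members with enough UMIs, 2 (Il1a and Il1b) were at least 2-fold higher in megakaryocytes, beside 16.1% of 11350 genes. Both reached 50 UMIs only through the megakaryocytes, so nothing is read from this count. The other 5 (Ccl2, Ccl7, Ccl19, Cxcl1 and Il1rn) were at least 2-fold lower, beside 43.7%, and reached 50 UMIs only through stroma, so the same holds for them. Of the 18 myeloid markers, 7 were detected in the megakaryocytes (S100a8, Lyz2, Elane, Cd68, Ptprc, Fcer1g and Laptm5), at a summed 1199 CPM against 67.3 in stroma, and the other 11 were at 0, S100a9, Itgam, Ly6g and Adgre1 among them. A UMI of a granulocyte gene of that list, of which S100a8 and Lyz2 were detected, was in 66 of the 102 megakaryocytes. The part of these markers in the Il1a and Il1b levels was not tested.

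The megakaryocytes were split by Pf4 (at least 1000 CPM) from 28 other cells of their cluster, of which 23 had 0 Pf4 UMIs. In those 28 cells 17 of 18 myeloid markers were detected, at a summed 13930 CPM, and they held Il6 (25 UMIs in 3 cells), Cxcl2 (28 UMIs in 3 cells), Il1b (14 UMIs in 2 cells) and Ccl2 (14 UMIs in 2 cells). Of the Il6 UMIs, 18 and 5 lay in 2 cells with 42 and 101 UMIs of Mcpt8, a basophil protease, and 11 and 6 UMIs of Ms4a2, a chain of the IgE receptor. This small group thus held 40.3% of all 62 Il6 UMIs in the kept barcodes, against 3.23% in the 1877 stromal cells. Il6 and Cxcl2 in these data were therefore sparse and lay mostly outside the stromal gate.

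Endothelial cells, osteoblasts and plasma cells contributed little. The 47 endothelial cells had 3 Il6 UMIs in 2 cells, 2 Il1rn UMIs and 0 of the other 8 members, and 0 UMIs in this small class allows up to 31.0 CPM. The 22 osteoblasts had Ccl19 in 3 cells and Il1rn in 1, and the 44 plasma cells had 0 UMIs of all 10 members.

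Erythroid cells held 235 Il1b UMIs in 142 of 6413 cells (2.21%), 69.1% of all Il1b UMIs, with at most 4 in a cell and a level of 1.12 CPM (0.930 to 1.35). Thinned to 1000 UMIs, Il1b was found in 0.127% of erythroid cells and 0.114% of stromal cells, so the erythroid share at full depth could not be set against stroma. The 124 Ccl2 UMIs of erythroid cells were mostly 1 barcode: 107 lay in a barcode called a doublet that also held 137 Cxcl12 and 14 Lepr UMIs. Without called doublets the class had 14 Ccl2 UMIs (0.0678 CPM).

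The receptors of the members were unevenly matched to them. In stroma Ackr4, a scavenger receptor that takes up CCL19, was at 397 CPM (66.8% of cells), Il1r1, the signalling receptor of IL-1, at 237 CPM (54.7%), Il6st, the shared signal chain of the IL-6 family, at 216 CPM (55.1%) and Tnfrsf1a at 192 CPM (49.8%). The leukocyte receptors of the chemokines were near 0 there: Ccr2, the receptor of CCL2 and CCL7, had 1 UMI, Ccr7, the receptor of CCL19, had 5, and Cxcr2, the receptor of CXCL1, was at 0.0930 CPM. Ccr2 was highest in the 28 other cells of the megakaryocyte cluster, at 69.8 CPM, with 62 UMIs in 5 cells. In stroma Il6ra, the gene of the IL-6 receptor, was at 3.72 CPM (1.65% of cells). Il1rap, the gene of the IL-1 receptor accessory protein, was at 15.4 CPM there (6.18%). Ackr1, the chemokine-binding Duffy receptor, was at 33.9 CPM in erythroid cells. Ackr3, on the list but not taken here as a receptor of any member, was at 271 CPM in the Clec3b/Pi16 fibroblasts against 0.0930 CPM in stroma.

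The stromal cells were next ranked by the summed CPM of 10 immediate-early genes (Fos, Fosb, Jun, Junb, Egr1, Atf3, Ier2, Nr4a1, Dusp1 and Klf4) and cut into tertiles of 626, 625 and 626 cells. The median immediate-early level was 0, 345 and 3265 CPM in the lower, middle and upper tertile, and 582 cells of the lower tertile had no UMI of the list. Ccl2 was at 18.8 CPM (12.8 to 26.7) in the lower tertile, 66.6 CPM (55.6 to 79.1) in the middle tertile and 138 CPM (121 to 156) in the upper tertile. Its level was higher at each step, with a log2 ratio of upper to lower of 2.87 (2.33 to 3.46). Cxcl1 was at 1.22, 2.06 and 41.2 CPM, a log2 ratio of 5.08 (3.18 to 8.16), with 147 of its 159 stromal UMIs in the upper tertile. Ccl7 was at 9.11, 6.68 and 23.8 CPM, a log2 ratio of 1.39 (0.51 to 2.34).

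The most abundant members moved little. Ccl19 was at 136, 134 and 178 CPM, a log2 ratio of 0.38 (0.13 to 0.64), and Il1rn at 238, 248 and 229 CPM, a log2 ratio of −0.06 (−0.26 to 0.15). In all, 3 of the 5 members were at least 2-fold higher in the upper tertile, beside 2.80% of 10040 genes, and 0 at least 2-fold lower, beside 0.378%. Cxcl1 (4 against 147 UMIs) and Ccl7 (30 against 85) reached 50 UMIs in the upper tertile alone, so nothing is read from their part in the count. Of the 3 members with at least 50 UMIs in each of these tertiles, Ccl2 was exceeded in its ratio by 27 of the 10040 genes, Ccl19 by 1534 and Il1rn by 5944.

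**Figure D3:**
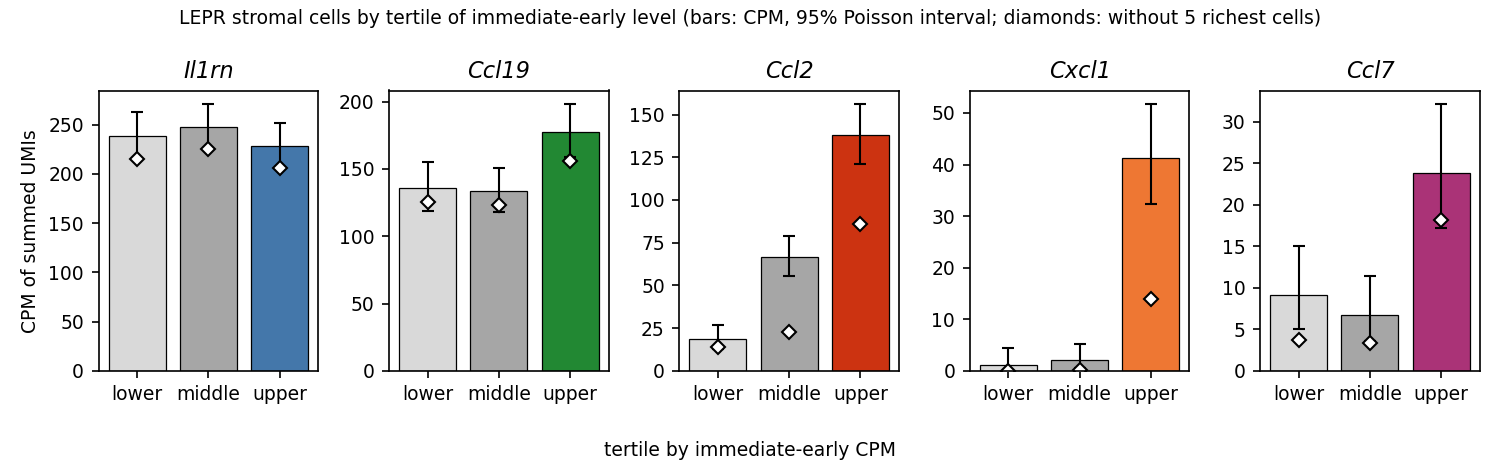
Level (CPM, vertical axes from 0) of 5 members in the lower, middle and upper tertile of stromal cells by immediate-early level. Bars carry exact 95% Poisson intervals for counting error, and diamonds give the level without the 5 cells of each tertile richest in the member. Ccl2 reaches 18.8, 66.6 and 138 CPM, and Il1rn stays between 229 and 248 CPM.

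Cells with many UMIs of Ccl2 and Cxcl1 lay mostly in the upper tertile, while those of Il1rn were spread evenly. Of the 18 cells with at least 10 Ccl2 UMIs, 0 were in the lower, 4 in the middle and 14 in the upper tertile, and of the 13 cells with at least 3 Cxcl1 UMIs all 13 were in the upper tertile. The richest Ccl2 cell, with 93 UMIs, was in the middle tertile. Cells with at least 3 UMIs fell 3, 3 and 10 over the tertiles for Ccl7 and 56, 68 and 76 for Ccl19. Of the 37 cells with at least 10 Il1rn UMIs, 12, 13 and 12 were in the 3 tertiles. Ccl2 was also found in more cells of the upper tertile, 92 of 626 against 31 of 626. Without the 5 richest cells of each tertile Ccl2 was at 14.1, 22.9 and 85.9 CPM and Cxcl1 at 0, 0.259 and 13.9 CPM. Thinning to 1000 UMIs before ranking lowered the Ccl2 ratio to 0.60 (−0.06 to 1.28; 50 against 33 UMIs), under 2-fold, where 995 of 1750 cells had no immediate-early UMI left and the lower tertile was taken among them in barcode order, while Cxcl1 was at 4.09 (1.41 to 9.47; 17 against 1 UMI) and Ccl7 at 2.09 (0.47 to 4.12; 17 against 4 UMIs), both on fewer than the 50 UMIs otherwise asked for. With lane 1 left out the log2 ratio of Ccl7 was 2.91, with lane 2 left out 1.32, and for Cxcl1 the same were 3.80 and 5.92.

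Other measures also moved across the tertiles, and their part in the member ratios was not tested. The summed heat shock genes were at 1181, 1306 and 2062 CPM, and Cdkn1a was at 17.0, 18.0 and 60.0 CPM. Median depth was 4693.5, 5808 and 5137.5 UMIs, the median mitochondrial share 4.02%, 3.50% and 3.25%, and the summed myeloid markers 58.9, 62.0 and 80.7 CPM. In stroma 15 of those 18 markers were detected, and Itgam, Ly6g and Adgre1 were at 0. The tissue had been digested with enzymes before sorting, and a state present in the animal and a response to digestion cannot be told apart in 1 sample.

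Several gene lists were set beside the members. Over all genes tested 2.80% were at least 2-fold higher in the upper tertile and 0.378% lower. Of 8 heat shock genes, 5 were higher by that limit and 0 lower, with a median log2 ratio of 1.35. Of 18 NF-kB feedback and target genes measured, 6 were at least 2-fold higher in the upper tertile and 0 lower, with a median of 0.80, against 0.01 over all genes tested. They included Icam1, an adhesion molecule (58.9 to 255 CPM, log2 2.11), Nfkbiz, a nuclear NF-kB cofactor (log2 2.07), and Cebpd, an acute-phase transcription factor (196 to 541 CPM, log2 1.47), while Vcam1, the most abundant gene of the list, had a log2 ratio of −0.02. Of 13 other chemokines 1 was higher, Cxcl10 (7.60 to 210 CPM, log2 4.79), and 1 lower, Ppbp. In the lower tertile 30 UMIs of Ccl7 made 9.11 CPM, so Cxcl10 at 7.60 CPM had fewer UMIs than that. It reached the minimum for a ratio through the upper tertile alone. Cxcl10 was found in 35 stromal cells (1.86%) and Ppbp in 33 (1.76%), so nothing is read from either call. Of 11 other cytokines 0 passed in either direction. Of 6 receptors 0 passed, with a median of 0.01. Nfkbiz, Ppbp, Icam1 and Cxcl10, like Mcpt8, Ms4a2, Btg2, Plk2, Mdm2, Ccr2, Ccr7, Cxcr2, Ackr1, Ackr3 and the myeloid markers, were named after their values were seen.

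Cdkn1a, which encodes the cell cycle inhibitor p21, was found in 160 stromal cells (8.52%), 29 in the lower, 41 in the middle and 90 in the upper tertile. The members were compared between these 160 cells and the 1717 without a Cdkn1a UMI. Cxcl1 was at 39.2 against 11.9 CPM, a log2 ratio of 1.72 (0.94 to 2.45), with UMIs in 7 and 28 cells. Ccl7 was at 25.0 against 11.7 CPM, a log2 ratio of 1.09 (0.13 to 1.95). Ccl19 was at 187 against 145 CPM, a log2 ratio of 0.37 (0.06 to 0.67).

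The other pair had lower values with Cdkn1a, within counting error. Ccl2 was at 57.1 against 77.8 CPM, a log2 ratio of −0.45 (−1.02 to 0.07), and Il1rn at 204 against 243 CPM, a log2 ratio of −0.25 (−0.54 to 0.03). Of the 18 cells with at least 10 Ccl2 UMIs, 2 (11.1%) had a Cdkn1a UMI, beside 160 of all 1877 stromal cells (8.52%). The Ccl2 value rested on its richest cells, since without 5 of them its log2 ratio was 0.23 and by the mean of per-cell CPM 0.39, and Ccl2 was found in 11.9% of cells with and 8.79% of cells without Cdkn1a. Thinned to 1000 UMIs, with 60 cells left with Cdkn1a, the direction turned for Ccl2 (log2 1.54, 0.43 to 2.48; 10 against 97 UMIs) and for Ccl19 (log2 −0.73, −2.37 to 0.51; 5 against 234 UMIs), so no direction by Cdkn1a is drawn for either. In all, 2 of 5 members were at least 2-fold higher with Cdkn1a, beside 1.83% of 10955 genes, and 0 at least 2-fold lower, beside 3.12%. The Ccl7 call was lost at a Cxcl12 limit of 2500 CPM (log2 0.89) and of 10000 CPM (log2 0.93). Of the 44 Cxcl1 UMIs in cells with Cdkn1a, 25 lay in 1 cell, so nothing is read from the Cxcl1 call.

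**Figure D4:**
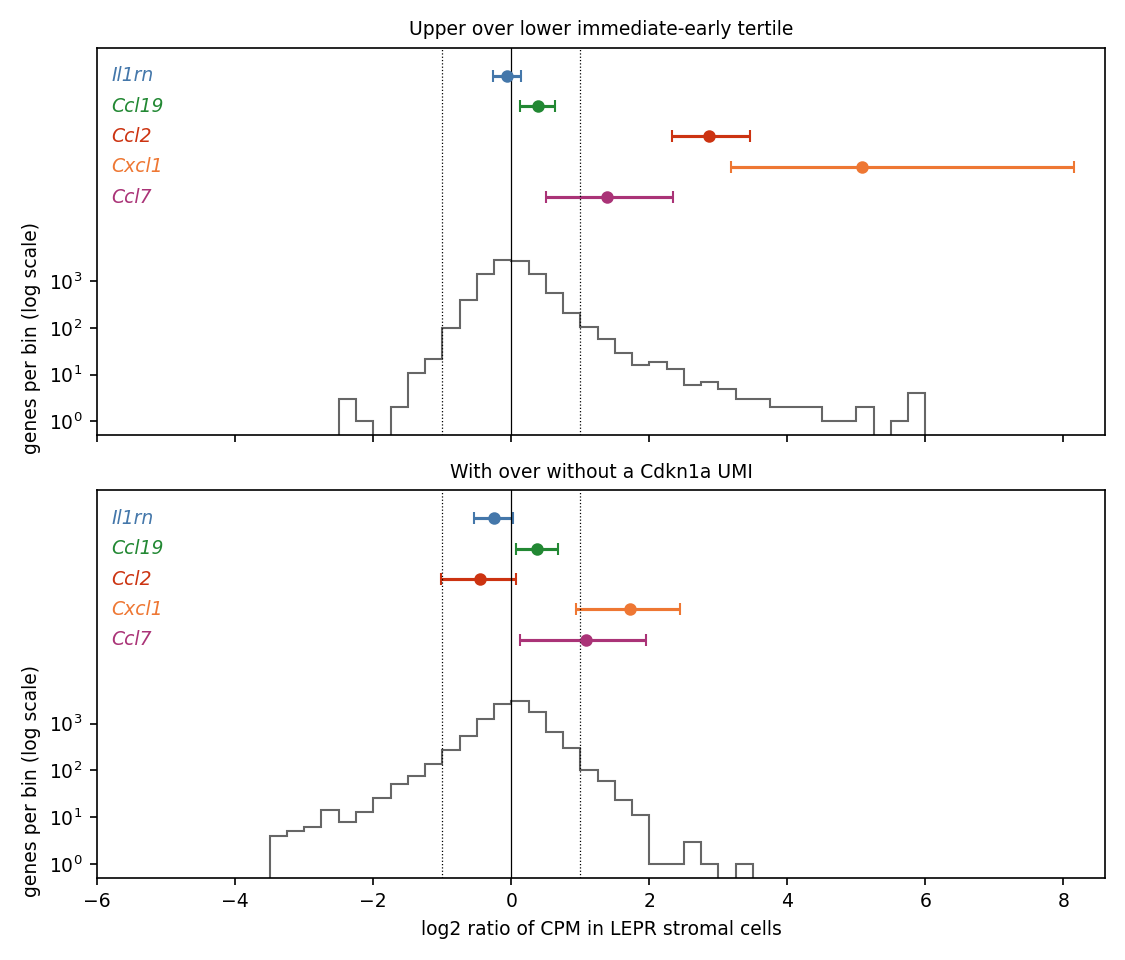
Log2 ratios of 5 members (coloured points, bars are exact 95% intervals for counting error) over the distribution of the ratios of all genes with at least 50 UMIs (outline, number of genes on a log axis; ratios above 6 are in the last bin). One panel compares the upper with the lower immediate-early tertile and the other cells with and without Cdkn1a, and dotted lines mark 2-fold. Cxcl1 and Ccl7 lie beyond 2-fold in both panels, Ccl2 at 2.87 in the first and −0.45 in the second. In the first, Cxcl1 and Ccl7 reached 50 UMIs in the upper tertile alone, so nothing is read from their place there. In the second, 1 cell held 25 of the 44 Cxcl1 UMIs with Cdkn1a, and Ccl7 fell under 2-fold at other Cxcl12 limits.

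Cells with Cdkn1a also had more immediate-early RNA, so the comparison was made again within tertiles. All 10 immediate-early genes were at least 2-fold higher with Cdkn1a, with a median log2 ratio of 1.78, and the median level of the list was 1341 against 316 CPM. Within the upper tertile, the log2 ratio was 1.02 (0.22 to 1.76) for Cxcl1, 0.90 (−0.20 to 1.90) for Ccl7, 0.42 (0.02 to 0.81) for Ccl19, −0.58 (−1.18 to −0.03) for Ccl2 and −0.52 (−0.96 to −0.10) for Il1rn. Ccl7 was then under 2-fold, while in the lower tertile it was at 1.24 (−1.95 to 3.38; 4 against 26 UMIs). In the upper tertile 1 cell with 4 Cdkn1a UMIs held 25 of the 44 Cxcl1 UMIs in the cells with Cdkn1a. The Cxcl1 ratio there rested on that cell, and no direction is read from it. Over all stroma the Cxcl1 ratio was 1.96 without the 5 cells richest in it. Of the 3 cells with at least 10 Cxcl1 UMIs only 1 had Cdkn1a, so this took UMIs from both sides. It does not show the ratio without that 1 cell alone. In the middle tertile 1 of 259 Ccl2 UMIs lay in cells with Cdkn1a, and Cxcl1 had 0 UMIs in the cells with Cdkn1a of the lower and middle tertiles, where it had 4 and 8 UMIs in the cells without.

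Of 12 p53 target genes measured, 2 were at least 2-fold higher with Cdkn1a, beside 1.83% of all genes tested (Btg2 and Plk2, which also passed 2-fold by immediate-early tertile), with a median log2 ratio of 0.62 against 0.03 over all genes tested. Mdm2, which p53 induces to limit itself, was at 33.9 CPM in both groups. Of 13 other chemokines 3 passed (Cxcl9, Cxcl10 and Pf4), of 12 other cytokines 0 and of 6 receptors 0. Cxcl10, found in 35 stromal cells, was at 171 against 63.4 CPM (log2 1.43). Of 18 NF-kB genes 1 passed (Icam1), against 6 by immediate-early tertile, a difference that was not tested. Of 8 heat shock genes 4 passed.

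Cdkn2a, the gene for p16, was found too rarely to be linked to the members. It had 22 UMIs in 18 of the 9573 cells, 5 of them stromal, and 0 stromal cells had both Cdkn2a and Cdkn1a. The 18 cells held 7 Ccl19 UMIs in 3 cells (0.384% of all Ccl19 UMIs), 11 Il1rn UMIs in 2 cells (0.382%), 5 Il1b UMIs in 2 cells (1.47%) and 0 UMIs of the other 7 members. Cells with a Cdkn2a UMI therefore held at most 1.47% of the UMIs of any member. A cell with p16 transcripts can show 0 Cdkn2a UMIs at this depth, so these counts limit cells with a detected UMI and not cells that express the gene.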

How the data were processed

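Live Lin-CD45- cells pooled from 3 mice were profiled by 10x Chromium 3′ single-cell RNA-seq in 2 libraries, labelled as replicates. They shared nearly all barcodes and were treated here as lanes of the same cells, which the labels do not state. The authors aligned reads to mm10 and counted UMIs with Cell Ranger, and the files hold the deposited filtered counts (whole UMIs, not normalised). The submitters' processing notes also name R 4.0.3 and Seurat 4.0, and the file headers give software version 3.0.2. Intronic counting is not given in the sources used here.

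Counts of the lanes were summed. Barcodes needed at least 200 genes and at most 20% mitochondrial UMIs. Clustering used R 4.3.3, Seurat 5.3.0 and sctransform 0.4.2 (3000 variable genes without the members, 30 components, resolution 0.8, then 0.3 for the mixed cluster). Clusters were named from marker lists. Scrublet (scanpy 1.11.5, expected rate 8%) called 202 doublets (2.11%), which were kept, with values without them as an alternative. Intervals were computed with scipy 1.17.1 in Python 3.11.15 and numpy 2.4.6, and tested on simulated data. Ratios needed 50 summed UMIs over both groups, except under the alternatives, where fewer can remain, called means at least 2-fold, and a gene at 0 UMIs was set to 3 counts for a bound. Shares were also taken in lane 1 thinned to 1000 UMIs per cell. No p-value was computed, since the lanes were taken as 1 biological sample.

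The members, gene lists and comparisons were chosen with earlier results of these data known. Text names were limited to the members, Cdkn1a, Cdkn2a, the most abundant genes of each list in stroma, the 5 genes most like each member found in at least 5% of stromal cells, cluster and class markers, and further genes named after their values were seen. Alternatives covered the limits on mitochondrial UMIs and genes, doublets, each lane, the stromal gate, myeloid RNA, averaging, depth, the immediate-early cut and list, the Cdkn1a limit and, added after seeing the data, the richest cells and the split of the megakaryocyte cluster.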

Additional observations from a re-analysis of the deposited data

Results flagged for a closer look

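The members were also read in data that no comparison used, the 1144 barcodes with more than 20% mitochondrial UMIs. Their summed level there was 10.8 CPM, above the 1.29 CPM that 0 UMIs of a gene allows, and this is what drew attention to them. Ccl2 had 18 UMIs in 5 of these barcodes, Ccl19 had 10 in 6 and Il1rn had 8 in 7. Only 19 of the barcodes passed the stromal gate, and those held 13 of the Ccl2 UMIs, 8 of the Ccl19 UMIs and 2 of the Il1rn UMIs.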

How the results depend on the processing

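Of the values that answer a comparison, 159 of those under an alternative stayed within the counting interval and 29 moved outside it. With the Cxcl12 limit at 2500 CPM, Ccl19 was at 132 CPM, Il1rn at 214 CPM, and the log2 ratio of Ccl2 by immediate-early tertile was 2.21. With the mean of per-cell CPM, Ccl2 was at 61.7, Ccl19 at 137 and Il1rn at 225 CPM, and Ccl2 by Cdkn1a was 0.39. Thinned to 1000 UMIs, Ccl2 was at 61.1, Ccl19 at 137 and Il1rn at 223 CPM. By immediate-early tertile the thinned log2 ratios were 0.60 for Ccl2 and −0.33 for Il1rn, and by Cdkn1a, with 60 positive cells left, 1.54 for Ccl2, now past 2-fold and opposite in sign to its main value of −0.45, 3.23 for Ccl7 (6 against 18 UMIs), −0.73 for Ccl19 and 3.14 for Cxcl1 (5 UMIs, in 1 cell, against 16). With Fos, Jun, Egr1 and Ier2 alone, Ccl2 was 1.74 and Il1rn −0.29, and between the upper and lower 10% of cells Ccl7 was 2.46, Ccl19 0.12 and Il1rn −0.65. Within the lower immediate-early tertile Ccl19 by Cdkn1a was 0.031, and within the middle tertile Ccl2 was −4.42 and Il1rn 0.20. Without the 5 richest stromal cells, Ccl2 was at 49.5 CPM, its ratio by Cdkn1a was 0.23, and Ccl2 and Cxcl1 by immediate-early tertile were 2.36 and 3.51. The cause of these moves was not tested.

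Leaving out either lane gave CPM in stroma of 75.2 to 77.6 for Ccl2, 146 to 158 for Ccl19, and 243 for Il1rn with either left out. Leaving out either lane gave log2 ratios by immediate-early tertile of 2.50 to 3.09 for Ccl2, 1.32 to 2.91 for Ccl7, 0.39 to 0.55 for Ccl19, 3.80 to 5.92 for Cxcl1, −0.27 to −0.092 for Il1rn. Leaving out either lane gave log2 ratios by Cdkn1a of −0.27 to −0.10 for Ccl2, 1.17 to 1.40 for Ccl7, 0.24 to 0.33 for Ccl19, 1.63 to 2.09 for Cxcl1, −0.60 to −0.49 for Il1rn. No paired analysis was possible because the lanes form 1 group of the same cells. Ratios of Cxcl1 by Cdkn1a within the lower and middle tertiles and of Ccl7 within the middle tertile gave no value, since 1 side had 0 UMIs. Depth limits Tnf, Cxcl2, Il1b, Il6 and Il1a in stroma, where at most 10 UMIs were counted, and classes under 50 cells.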
